A study of Homo sapiens with 12 samples.

Results

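The genes described here encode the subunits of the RNA exosome, EXOSC1 to EXOSC10. All probes whose accession belongs to one of these genes in RefSeq were taken, which gave 11 probes for 10 of the 27522 gene names on the array. The cells were U2OS, a human osteosarcoma cell line, and each group received 20 nM of siRNA and was cultured for 48 h. The 4 groups were control siRNA and siRNA against DBP5, GLE1 or IPPK, with 3 one-colour arrays of cytoplasmic RNA per group. DBP5 is an RNA helicase at the cytoplasmic face of the nuclear pore, GLE1 is its activator, and IPPK makes inositol hexakisphosphate, a cofactor of that activation. The labels do not say which of the control siRNAs, or of those against GLE1 or IPPK, was used on the arrays. For DBP5 the paper names a single siRNA.

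The exosome degrades and trims RNA from its 3′ end, in the nucleus and in the cytoplasm. Its core is a barrel: a ring of proteins related to the phosphorolytic nuclease RNase PH (EXOSC4 to EXOSC9), which in humans have lost their own activity, topped by a cap of RNA-binding proteins (EXOSC1 to EXOSC3). The nuclease activity comes from partners attached to the barrel, DIS3 or DIS3L at its base and EXOSC10 (RRP6), which is mainly nuclear. In the ring, EXOSC4 is paired with EXOSC9, EXOSC5 with EXOSC8, and EXOSC6 with EXOSC7.

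Levels are log2 intensities after subtraction of the local background and normalisation between arrays. Ratios to control were obtained by turning the log2 difference of 2 group means back to the linear scale, with the SD taken over the 3 arrays of the knock-down. Differences were tested with limma over all 20821 genes kept, and a gene was called lower or higher at an adjusted p under 0.05. All 10 subunits were kept, and the scanner software marked each of them as well above background on every one of the 12 arrays. None had an outlier spot. Precision is limited by having 3 arrays in each group. The methods speak of independent array experiments, but the labels do not say whether the 3 arrays of a group came from separate cultures, so p-values measure the spread between these samples, which may be technical. Each of the 3 slides held 1 array of every siRNA, and a given siRNA had the same position on each slide, so siRNA and position cannot be told apart.

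The targets of the siRNAs checked the labels. DDX19B, the gene of DBP5, was at 10.23, 10.15 and 10.15 on the control arrays and at 6.25, 6.21 and 6.20 on the DBP5 siRNA arrays. GLE1 was at 8.29, 8.32 and 8.26 in control and at 5.40, 4.85 and 4.72 after its own knock-down. IPPK was at 9.32, 9.43 and 9.47 in control and at 6.94, 6.95 and 7.05 after its own knock-down. By its brightest probe, each target was lower on the arrays of its own siRNA than on the other 9 arrays, with limma adjusted p against control of 3.01e-11 for DDX19B, 2.08e-08 for GLE1 and 1.57e-09 for IPPK. The knock-downs were not fully separate at this level, since IPPK was also at 8.21, 8.15 and 8.11 on the DBP5 siRNA arrays and DDX19B at 9.22, 9.14 and 9.08 on the GLE1 siRNA arrays. IPPK has a second probe, which gave 0.497 of control with IPPK siRNA (limma adjusted p = 9.26e-06 in a fit of all probes), did not separate DBP5 from IPPK siRNA (0.0618) and was at 2.08 of control with GLE1 siRNA (4.4e-06), where the brightest probe was at 0.821.

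GLE1 knock-down lowered most of the subunits. In GLE1 knocked-down cells 8 of the 10 subunits were called lower and 1 higher, while 31.5% of all genes tested were called lower and 30.6% higher. After DBP5 knock-down 3 subunits were lower and 2 higher, with 27.5% of all genes lower and 26.7% higher. IPPK knock-down gave 4 lower and 3 higher subunits, with 28% of all genes lower and 27.3% higher. The knock-down arrays did not overlap the control arrays for all 10 subunits after GLE1 knock-down (68.5% of all genes), for 5 after DBP5 knock-down (59.2%) and for 8 after IPPK knock-down (63.7%). The counts after DBP5 and IPPK knock-down lie near these shares of all genes. The 3 comparisons use the same control arrays.

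The median log2 difference of the subunits from control was -0.34 after GLE1 knock-down, where that of all genes was 0.01. With DBP5 siRNA it was -0.07 and with IPPK siRNA -0.06, where all genes had medians of -0.02 and -0.03. The median absolute log2 difference of the subunits was 0.37 after GLE1 knock-down against 0.38 for all genes. It was 0.26 against 0.30 after DBP5 knock-down and 0.22 against 0.31 after IPPK knock-down. At least 1.5-fold lower were 3 subunits after GLE1 knock-down (18.2% of all genes), 2 after DBP5 knock-down (12.6%) and none after IPPK knock-down (13.2%). At least 1.5-fold higher than control was EXOSC8 after IPPK knock-down (13.6% of all genes), and no subunit was that much higher with DBP5 siRNA (12.9%) or GLE1 siRNA (16.3%).

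**Figure D1:**
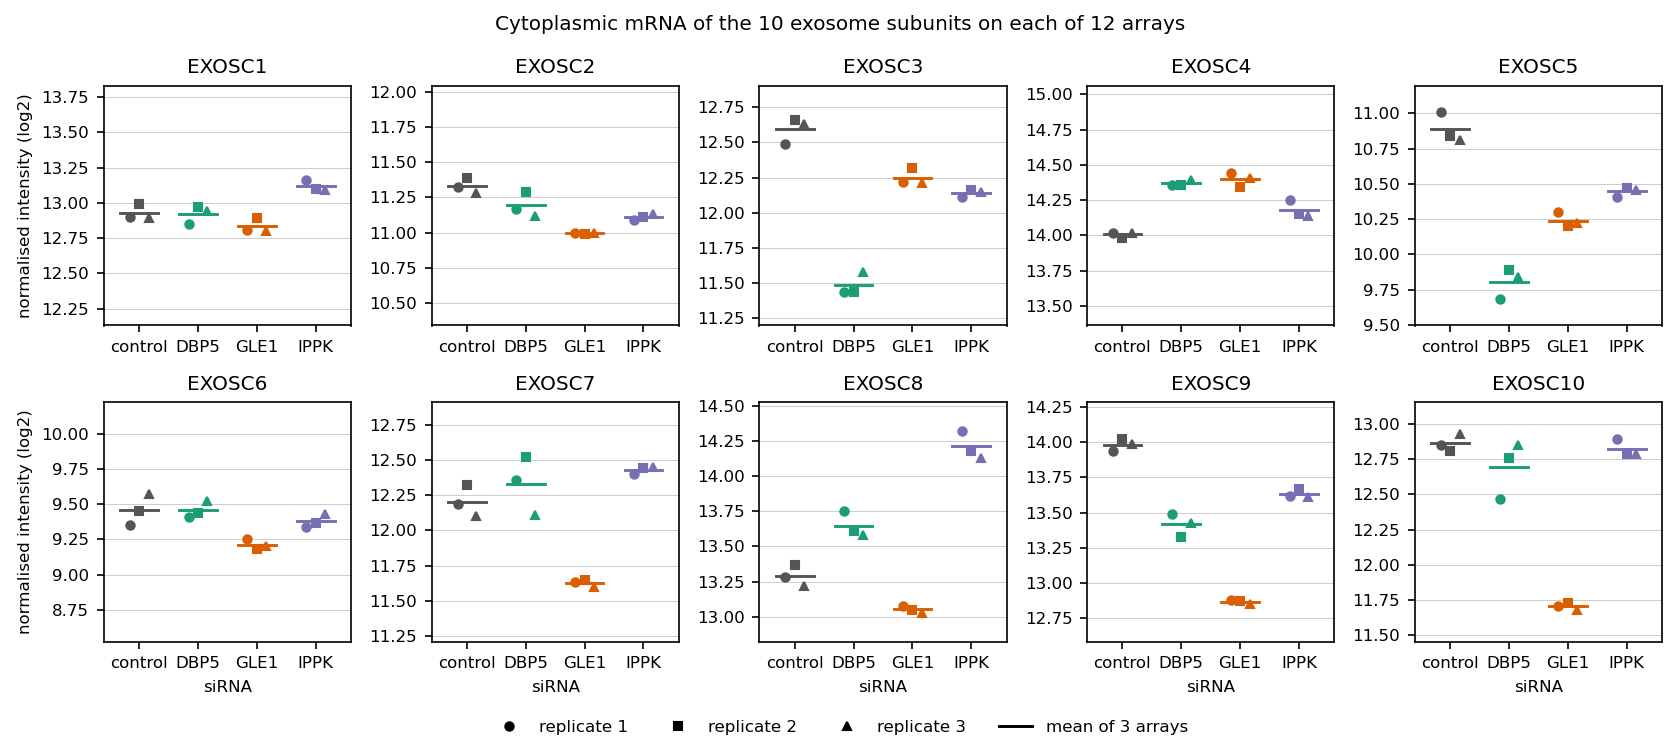
Normalised log2 intensity (vertical axes, each spanning the same log2 range) of the 10 exosome subunits on the 12 arrays, by siRNA (horizontal axes), with a symbol per array by replicate number and a line at the mean of 3 arrays. The DBP5 siRNA arrays are lowest for EXOSC3 and EXOSC5, the GLE1 siRNA arrays are lowest for EXOSC7, EXOSC9 and EXOSC10, and the IPPK siRNA arrays are highest for EXOSC8.

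Of the cap proteins, EXOSC3 (RRP40) had the widest range between groups, 1.11 on the log2 scale. Its level was 12.49, 12.66 and 12.63 on the control arrays, 11.44, 11.44 and 11.58 with DBP5 siRNA, 12.22, 12.32 and 12.21 with GLE1 siRNA and 12.11, 12.16 and 12.15 with IPPK siRNA. Every knock-down array lay below every control array, and the DBP5 siRNA arrays lay far below the other 9. EXOSC3 was 0.464 ± 0.0268 (SD, n = 3 arrays) of control with DBP5 siRNA (limma adjusted p = 2.06e-07). GLE1 knock-down left it at 0.789 ± 0.0347 of control (limma adjusted p = 0.000735) and IPPK knock-down at 0.729 ± 0.0146 (limma adjusted p = 0.000123). In the order of levels, DBP5 knock-down was lowest and differed from IPPK knock-down (limma adjusted p = 1.3e-05), IPPK and GLE1 knock-down did not differ past the limit (0.149), and control was highest. EXOSC3 is a gene whose probe was printed as 10 spots on each array. The SD between those spots had a median of 0.055 on the log2 scale and was at most 0.13 on any array. It describes the measurement and not the spread between samples.

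EXOSC2 (RRP4), also a cap protein, changed less, and it is the subunit with 2 probes. The brighter probe was at 11.32, 11.39 and 11.28 in control, 11.17, 11.29 and 11.12 with DBP5 siRNA, 11.00, 10.99 and 11.00 with GLE1 siRNA and 11.09, 11.11 and 11.13 with IPPK siRNA. The GLE1 and IPPK siRNA arrays lay below all control arrays, and the DBP5 siRNA arrays overlapped control. The dimmer probe was at 11.01, 11.09 and 10.87 in control, 10.83, 10.68 and 10.51 after DBP5, 10.10, 10.06 and 10.10 after GLE1 and 10.46, 10.52 and 10.48 after IPPK knock-down. On this probe none of the knock-down arrays overlapped control, and the order of the groups was the same.

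By the brighter probe EXOSC2 was 0.795 ± 0.00394 (SD, n = 3 arrays) of control with GLE1 siRNA (limma adjusted p = 0.000256) and 0.86 ± 0.0112 with IPPK siRNA (limma adjusted p = 0.00506, and 0.0711 in the methods' t-test). After DBP5 knock-down it was 0.912 ± 0.0555 of control and missed the limit (limma adjusted p = 0.0551). The dimmer probe gave lower ratios, 0.535 after GLE1, 0.703 after IPPK and 0.801 after DBP5 knock-down, and in a fit of all probes on their own it passed after DBP5 knock-down (limma adjusted p = 0.00647). The call after DBP5 knock-down thus rests on the probe. It also appeared without control replicate 3 (limma adjusted p = 0.0478) or DBP5 replicate 2 (0.0125), with quantile normalisation (0.0465), with scaling to the 75th percentile (0.0388), with the authors' processed values (0.0388) and among genes well above background on each array (0.0493). Over all alternatives the adjusted p of this difference ran from 0.00881 to 0.177. GLE1 knock-down was lowest in the order of levels. By the dimmer probe it differed from IPPK knock-down (ratio 0.76, limma adjusted p = 0.0016 in the fit of all probes). By the brighter one it did not (limma adjusted p = 0.0861), except without DBP5 replicate 2 (0.049), when the mean of both probes (0.00403), scaling to the 75th percentile (0.0241), the 6 arrays compared alone (0.0341) or the methods' t-test (0.0275) was used, in a range from 0.00403 to 0.242. IPPK and DBP5 knock-down did not differ past the limit (limma adjusted p = 0.22).

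**Figure D2:**
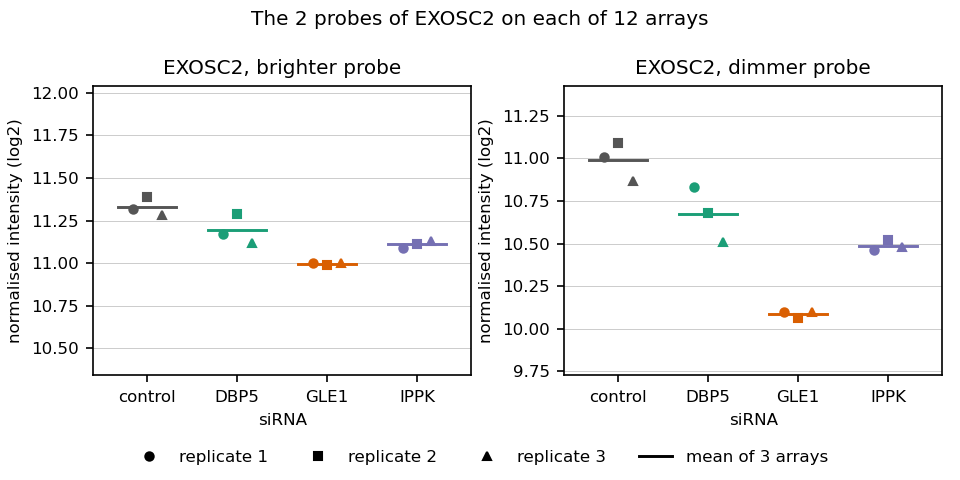
Normalised log2 intensity (vertical axes) of the brighter and the dimmer probe of EXOSC2 on the 12 arrays, by siRNA (horizontal axes), with a symbol per array by replicate number and a line at the mean of 3 arrays. Both probes are lowest after GLE1 knock-down, at 0.795 and 0.535 of control, and the DBP5 siRNA arrays overlap control on the brighter probe.

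EXOSC1 (CSL4), which completes the cap, was the cap protein not called lower in any knock-down. It was at 12.90, 12.99 and 12.89 in control, 12.85, 12.97 and 12.94 after DBP5, 12.81, 12.89 and 12.80 after GLE1 and 13.16, 13.10 and 13.09 after IPPK knock-down. The IPPK siRNA arrays lay above all others and the DBP5 siRNA arrays overlapped control. The GLE1 siRNA arrays lay just below all control arrays, by less than 0.01 at the nearest pair. After IPPK knock-down EXOSC1 was 1.14 ± 0.0304 (SD, n = 3 arrays) of control (limma adjusted p = 0.0122). That call was lost with normexp background correction (limma adjusted p = 0.0624), with the processed values of the authors (0.0593) and in the methods' t-test (adjusted p = 0.103), in a range from 0.00759 to 0.103 over all alternatives. The ratio after GLE1 knock-down was 0.935 ± 0.0315 (limma adjusted p = 0.139), which passed with scaling to the 75th percentile (0.0497) and in the methods' t-test (0.0178; range 0.0178 to 0.367).

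In the ring, the partners of the pair EXOSC4 (RRP41) and EXOSC9 (RRP45) moved in opposite directions in every knock-down. EXOSC9 was at 13.94, 14.02 and 13.99 in control, 13.49, 13.33 and 13.43 after DBP5, 12.88, 12.87 and 12.85 after GLE1 and 13.62, 13.67 and 13.61 after IPPK knock-down. No 2 groups overlapped, with GLE1 knock-down lowest, then DBP5, then IPPK, then control. EXOSC9 was 0.462 ± 0.00489 (SD, n = 3 arrays) of control with GLE1 siRNA (limma adjusted p = 2.03e-08), 0.675 ± 0.0369 with DBP5 siRNA (5.09e-06) and 0.784 ± 0.0188 with IPPK siRNA (0.000163). All neighbours in this order differed, with limma adjusted p of 6.16e-06 between GLE1 and DBP5 and 0.00516 between DBP5 and IPPK knock-down. In the methods' t-test, adjusted over the same genes, the difference after DBP5 knock-down missed the limit (0.0546; range over all alternatives 2.91e-06 to 0.0546), as did that between DBP5 and IPPK knock-down (0.156; range 0.0027 to 0.156).

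EXOSC4 was the subunit called higher in all 3 knock-downs. Its level was 14.02, 13.98 and 14.02 in control, 14.36, 14.36 and 14.39 after DBP5, 14.44, 14.34 and 14.41 after GLE1 and 14.25, 14.15 and 14.14 after IPPK knock-down. The control arrays were lowest, the IPPK siRNA arrays came next without overlap, and the DBP5 and GLE1 siRNA arrays were highest and overlapped each other. EXOSC4 was 1.29 ± 0.0165 (SD, n = 3 arrays) of control with DBP5 siRNA (limma adjusted p = 7.54e-05), 1.31 ± 0.0442 with GLE1 siRNA (3.23e-05) and 1.13 ± 0.047 with IPPK siRNA (0.00893). The last of these missed the limit in the methods' t-test (adjusted p = 0.0724; range over all alternatives 0.0077 to 0.0724). DBP5 and GLE1 knock-down did not differ past the limit (limma adjusted p = 0.681, ratio 1.02 with a 95% interval of 0.947 to 1.1). IPPK knock-down was below GLE1 knock-down (limma adjusted p = 0.00243) and below DBP5 knock-down (0.00702), and both calls were lost with normexp (0.0639 and 0.127), the latter also with the processed values of the authors (0.0932) and in the methods' t-test (0.106).

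The pair of EXOSC5 (RRP46) and EXOSC8 (RRP43) also split after DBP5 and IPPK knock-down, with EXOSC5 lower and EXOSC8 higher, while both were lower after GLE1 knock-down. EXOSC5 was at 11.01, 10.84 and 10.81 in control, 9.68, 9.89 and 9.84 after DBP5, 10.30, 10.20 and 10.22 after GLE1 and 10.41, 10.47 and 10.46 after IPPK knock-down. No 2 groups overlapped, and the order from the lowest was DBP5, GLE1, IPPK and control. The ratio to control was 0.472 ± 0.0348 (SD, n = 3 arrays) with DBP5 siRNA (limma adjusted p = 4.58e-07), 0.638 ± 0.0238 with GLE1 siRNA (1.32e-05) and 0.736 ± 0.0156 with IPPK siRNA (0.000304). In the methods' t-test the first missed the limit narrowly (adjusted p = 0.0503; range over all alternatives 6.06e-08 to 0.0503) and the last missed it too (0.0677; range 0.000166 to 0.0677). EXOSC5 was lower after DBP5 than after GLE1 knock-down (limma adjusted p = 0.000336, and 0.0972 in the methods' t-test). It was lower after GLE1 than after IPPK knock-down (limma adjusted p = 0.0257), a call that was lost without GLE1 replicate 2 (0.0812), GLE1 replicate 3 (0.0703), IPPK replicate 2 (0.0736) or IPPK replicate 3 (0.065), when single spots were normalised before averaging (0.0543) and in the methods' t-test (0.0866), in a range from 0.00518 to 0.0866.

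EXOSC8 was at 13.28, 13.37 and 13.22 in control, 13.75, 13.61 and 13.58 after DBP5, 13.08, 13.05 and 13.03 after GLE1 and 14.32, 14.18 and 14.13 after IPPK knock-down. Again no 2 groups overlapped, with GLE1 knock-down lowest, then control, DBP5 and IPPK knock-down. EXOSC8 was 1.9 ± 0.128 (SD, n = 3 arrays) of control with IPPK siRNA (limma adjusted p = 9.47e-07), 1.28 ± 0.082 with DBP5 siRNA (0.000957) and 0.849 ± 0.0155 with GLE1 siRNA (0.0101). In the methods' t-test the latter 2 missed the limit, with adjusted p of 0.0807 and 0.0547 (ranges over all alternatives 7.22e-05 to 0.0807 and 0.000486 to 0.0547). With IPPK siRNA the level was above that with DBP5 siRNA (limma adjusted p = 5.44e-05), and the level after GLE1 knock-down was 0.447 of that after IPPK knock-down (1.43e-07).

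EXOSC7 (RRP42) and EXOSC6 (MTR3), the remaining pair of the ring, were both lower after GLE1 knock-down. EXOSC7 was at 12.19, 12.32 and 12.10 in control, 12.36, 12.52 and 12.11 after DBP5, 11.63, 11.65 and 11.60 after GLE1 and 12.40, 12.44 and 12.45 after IPPK knock-down. The GLE1 siRNA arrays were the lowest, the DBP5 siRNA arrays were spread from within control to above all IPPK siRNA arrays, and the IPPK siRNA arrays lay above all control arrays. After GLE1 knock-down EXOSC7 was 0.67 ± 0.0137 (SD, n = 3 arrays) of control (limma adjusted p = 0.000266). It was also lower after GLE1 than after DBP5 knock-down (ratio 0.614, limma adjusted p = 8.12e-05, and 0.0618 in the methods' t-test) and than after IPPK knock-down (ratio 0.573, limma adjusted p = 2.57e-05).

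Between DBP5 and IPPK knock-down EXOSC7 did not pass in any alternative (adjusted p from 0.0931 to 0.94). Its differences from control after IPPK and DBP5 knock-down changed their call with single arrays or with the processing. After IPPK knock-down it was 1.17 ± 0.0234 of control, which did not pass without the slide as a block (limma adjusted p = 0.0606) and passed with it (0.0303), with log2 differences of 0.203, 0.124 and 0.35 within the 3 slides. The same difference passed without control replicate 2 (limma adjusted p = 0.0407), DBP5 replicate 2 (0.0283) or DBP5 replicate 3 (0.0145). It also passed with normexp (0.0304), the processed values of the authors (0.0235), the 6 arrays compared alone (0.0306) and single spots normalised before averaging (0.0494), in a range from 0.0145 to 0.19. After DBP5 knock-down EXOSC7 was 1.09 ± 0.151 of control (limma adjusted p = 0.286) and passed without DBP5 replicate 3 (0.0224; range 0.0224 to 0.775).

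EXOSC6 was at 9.35, 9.45 and 9.57 in control, 9.41, 9.44 and 9.52 after DBP5, 9.25, 9.18 and 9.20 after GLE1 and 9.34, 9.37 and 9.43 after IPPK knock-down. The GLE1 siRNA arrays lay below the other 9, which overlapped one another. Its range between groups, 0.248, was the smallest of the 10 subunits. The ratio to control was 0.843 ± 0.0197 (SD, n = 3 arrays) with GLE1 siRNA (limma adjusted p = 0.00496, and 0.128 in the methods' t-test, the highest over all alternatives, and 0.00156 the lowest). It did not pass after IPPK knock-down (ratio 0.946, 95% interval 0.861 to 1.04, limma adjusted p = 0.308) or after DBP5 knock-down (95% interval 0.91 to 1.1, limma adjusted p = 0.993).

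EXOSC10, the subunit with nuclease activity of its own, fell after GLE1 knock-down alone among the comparisons with control. It was at 12.85, 12.81 and 12.93 in control, 12.47, 12.76 and 12.85 after DBP5, 11.71, 11.73 and 11.68 after GLE1 and 12.89, 12.79 and 12.79 after IPPK knock-down. The GLE1 siRNA arrays were far below the other 9, and the control, DBP5 and IPPK siRNA arrays overlapped. With GLE1 siRNA the level was 0.449 ± 0.00836 (SD, n = 3 arrays) of control (limma adjusted p = 8.14e-07), with log2 differences of -1.14, -1.08 and -1.25 within the 3 slides. It was 0.504 of the level with DBP5 siRNA (limma adjusted p = 4.17e-06, and 0.0534 in the methods' t-test) and 0.461 of that with IPPK siRNA (1.33e-06). Against control, EXOSC10 after IPPK knock-down was 0.973 ± 0.0411 (95% interval 0.851 to 1.11, limma adjusted p = 0.744). After DBP5 knock-down it was 0.891 ± 0.119 (limma adjusted p = 0.136), and without DBP5 replicate 3, the highest of its group, the difference passed (0.0334; range over all alternatives 0.0334 to 0.461).

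**Figure D3:**
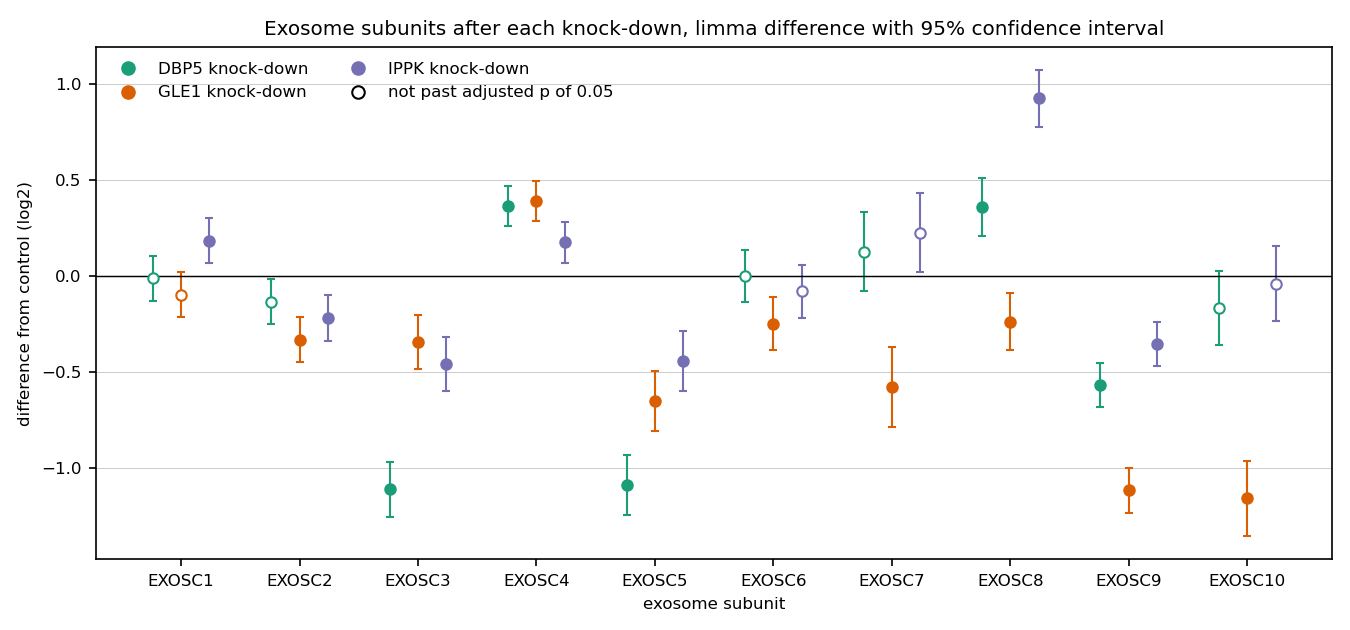
Log2 difference from control (vertical axis) of the 10 exosome subunits (horizontal axis) after DBP5, GLE1 and IPPK knock-down, as limma estimates over 12 arrays with 95% confidence intervals, filled where the adjusted p was under 0.05. EXOSC4 is filled above control in all 3 knock-downs, EXOSC3, EXOSC5 and EXOSC9 are filled below it in all 3, and EXOSC2 and EXOSC10 lie below it in all 3, filled in 2 and 1 of them.

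The knock-downs were also tested directly against each other. Between GLE1 and DBP5 knock-down, 6 subunits were lower after GLE1 knock-down and 2 higher, with 28% of all genes lower and 26.5% higher. The 2 higher were EXOSC3, at 1.7 of its level on the DBP5 siRNA arrays (limma adjusted p = 2.64e-06), and EXOSC5, at 1.35. In the methods' t-test 2 subunits were lower and 1 higher in this comparison, with 13.4% and 12.1% of all genes, and among the calls lost were those of EXOSC2 (0.129) and EXOSC6 (0.0835). Between GLE1 and IPPK knock-down, 7 were lower after GLE1 knock-down and 1, EXOSC4, was higher, with 30.7% and 29.4% of all genes. Of those 7, EXOSC6 at 0.89 of its level after IPPK knock-down (limma adjusted p = 0.037) lost the call without GLE1 replicate 2 (0.104), GLE1 replicate 3 (0.0856), IPPK replicate 2 (0.0731) or IPPK replicate 3 (0.121). It was also lost with normexp (0.0666), without the filter on dim probes (0.0534), when single spots were normalised before averaging (0.0657) and in the methods' t-test (0.0898), in a range from 0.0141 to 0.121. Between DBP5 and IPPK knock-down, 5 subunits were lower after DBP5 knock-down and 1, EXOSC4, was higher, with 25.1% and 23.8% of all genes, and 3 were lower and 1 higher in the methods' t-test (9.95% and 9.01% of all genes), where EXOSC6 gained a call (0.0437). The 5 were EXOSC1, EXOSC3, EXOSC5, EXOSC8 and EXOSC9, with ratios from 0.637 for EXOSC3 to 0.874 for EXOSC1. The call of EXOSC1 (limma adjusted p = 0.0106) was lost with normexp (0.105), with the processed values of the authors (0.104) and in the methods' t-test (0.155; range 0.00844 to 0.155). The median log2 difference of the subunits was -0.22 between GLE1 and DBP5 knock-down, -0.24 between GLE1 and IPPK knock-down and -0.16 between DBP5 and IPPK knock-down, where all genes had medians of 0.03, 0.02 and 0.00.

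Promoter sequences are shown for the subunits that fell to less than 0.5 of control in some knock-down, EXOSC3 and EXOSC5 after DBP5 knock-down and EXOSC9 and EXOSC10 after GLE1 knock-down, and for EXOSC8, which rose after IPPK knock-down. The sequences are RefSeq's for GRCh38.p14, the 250 bases before the annotated start of each gene, written 5′ to 3′ on the strand of the gene. They lie at chr9:37785093-37785342 (minus strand, 1 of the 2 starts given for EXOSC3), chr19:41397360-41397609 (minus strand, EXOSC5), chr4:121801073-121801322 (plus strand, EXOSC9), chr1:11099870-11100119 (minus strand, EXOSC10) and chr13:37000536-37000785 (plus strand, EXOSC8). Entries were used for 8 of the 10 subunits, and EXOSC1 and EXOSC4 have none used here. Capitals mark matches, on either strand, to the motifs searched.
EXOSC3: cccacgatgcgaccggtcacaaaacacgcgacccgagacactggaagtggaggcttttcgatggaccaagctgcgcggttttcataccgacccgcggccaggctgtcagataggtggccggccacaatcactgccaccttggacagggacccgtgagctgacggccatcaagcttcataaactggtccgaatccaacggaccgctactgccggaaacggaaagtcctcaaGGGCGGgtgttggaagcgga
EXOSC5: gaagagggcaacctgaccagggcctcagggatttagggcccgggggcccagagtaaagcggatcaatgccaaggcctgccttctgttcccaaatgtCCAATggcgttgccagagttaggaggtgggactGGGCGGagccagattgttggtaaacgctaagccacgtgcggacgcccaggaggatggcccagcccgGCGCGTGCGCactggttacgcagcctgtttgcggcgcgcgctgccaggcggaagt
EXOSC9: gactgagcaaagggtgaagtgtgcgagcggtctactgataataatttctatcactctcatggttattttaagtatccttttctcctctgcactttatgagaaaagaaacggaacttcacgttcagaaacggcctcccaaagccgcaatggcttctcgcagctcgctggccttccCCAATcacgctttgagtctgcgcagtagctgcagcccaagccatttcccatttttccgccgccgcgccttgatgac
EXOSC10: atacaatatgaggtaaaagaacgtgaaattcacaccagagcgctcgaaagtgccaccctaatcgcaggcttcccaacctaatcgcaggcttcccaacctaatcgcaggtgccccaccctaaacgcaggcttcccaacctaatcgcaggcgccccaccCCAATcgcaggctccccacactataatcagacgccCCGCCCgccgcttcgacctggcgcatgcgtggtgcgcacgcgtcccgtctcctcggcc
EXOSC8: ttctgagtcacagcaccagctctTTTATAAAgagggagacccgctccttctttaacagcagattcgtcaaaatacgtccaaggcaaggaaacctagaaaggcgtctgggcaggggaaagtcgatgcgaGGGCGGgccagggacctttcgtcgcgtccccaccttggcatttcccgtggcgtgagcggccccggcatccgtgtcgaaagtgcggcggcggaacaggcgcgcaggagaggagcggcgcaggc

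The motifs were searched on both strands of 35116 promoter windows of 250 bases, and the share of windows holding each was counted. The CCAAT box (CCAAT, 32.01% of windows) was found in EXOSC5 at 154 to 150 bases before the start, in EXOSC9 at 76 to 72 bases and in EXOSC10 at 93 to 89 bases. The GC box (GGGCGG, 42.64% of windows) was found in EXOSC3 at 20 to 15 bases before the start shown, in EXOSC5 at 121 to 116, in EXOSC8 at 122 to 117 and, on the opposite strand, in EXOSC10 at 58 to 53. The NRF1 motif (GCGC, any base and TGCGC, 5.075% of windows) was in EXOSC5 at 55 to 46 bases before the start. TATAAA (10.72% of windows) matched EXOSC8 on both strands, overlapping, between 227 and 220 bases before the start. The ETS motif CCGGAAG (8.517%), the cAMP response element TGACGTCA (1.646%), the YY1 motif AAGATGGCG (0.6521%) and the E2F motifs TTTCCCGC (1.39%) and TTTGGCGC (0.5496%) were not in these 5 windows. The GC box and the CCAAT box were each found in windows of subunits with different patterns of levels, both are the commonest of the motifs searched, and a match describes the letters only.

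EXOSC8 and EXOSC10 had the largest ranges between group means, 1.16 each on the log2 scale. Over the 12 arrays, among 18420 genes well above background on each of them, the genes with the pattern most like that of EXOSC10 were ABHD14B (Pearson's r = 0.995), COPS7B (0.994) and RALY (0.99). They differed from control by -1.36, -1.56 and -0.86 on the log2 scale after GLE1 knock-down. Most like EXOSC8 were CASP5, ELMOD2 and AK6, each with r = 0.992 and log2 differences of 0.89, 0.71 and 0.73 after IPPK knock-down. At r of 0.95 or more there were 367 of these genes for EXOSC10 and 116 for EXOSC8. The arrays share slides and groups, and the values of r are descriptions.

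The partners and cofactors of the exosome were taken as lists by their known roles. Of the nucleases at the base of the barrel, DIS3 had a probe well above background on only 4 arrays and was not tested. DIS3L, the cytoplasmic one, was 0.848 ± 0.0269 (SD, n = 3 arrays) of control with GLE1 siRNA (limma adjusted p = 0.00453) and 0.761 ± 0.0216 with IPPK siRNA (0.000192). After DBP5 knock-down it was 1.07 ± 0.0751 (limma adjusted p = 0.178), and it passed there without DBP5 replicate 1 (0.0327).

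Of 12 cofactors of the nuclear exosome, 4 were lower and 4 higher after DBP5 knock-down (27.5% and 26.7% of all genes), 5 lower and 2 higher after GLE1 knock-down (31.5% and 30.6%) and 5 lower and 5 higher after IPPK knock-down (28% and 27.3%). In the methods' t-test C1D alone stayed lower and PABPN1 alone higher after DBP5 knock-down (12.5% and 11.7% of all genes), while GLE1 siRNA gave 4 lower and 2 higher (24% and 23.2%) and IPPK siRNA 3 lower and 4 higher (17.7% and 18.9%). By the brightest probe of each gene C1D, which binds EXOSC10, had the largest fall after DBP5 knock-down, to 0.521 ± 0.0484 (SD, n = 3 arrays) of control (limma adjusted p = 8.09e-07). It also had the largest fall after GLE1 knock-down, to 0.622 ± 0.00804 (limma adjusted p = 5.39e-06). The rank after GLE1 knock-down depends on the probe, since the second probe of ZFC3H1, about as bright as its first, was at 0.498 of control there, and the mean of its probes was -0.80 on the log2 scale. After IPPK knock-down C1D was at 0.858 (limma adjusted p = 0.0149), a call lost without control replicate 1 (0.0554) or IPPK replicate 2 (0.0513), with normexp (0.072), with the processed values of the authors (0.0664) and in the methods' t-test (0.051; range 0.00406 to 0.072). MPHOSPH6, also a partner of EXOSC10, was 0.672 ± 0.022 of control after GLE1 knock-down (limma adjusted p = 1.08e-06). Its small differences after DBP5 knock-down (ratio 1.09) and IPPK knock-down (0.917) are among the calls counted, and each was lost when any of several single arrays was left out, with adjusted p up to 0.105 and 0.104, and under several other settings, with adjusted p up to 0.127 and 0.272. PABPN1, the nuclear poly(A)-binding protein, had the largest rise after DBP5 knock-down, to 1.74 ± 0.106 of control (limma adjusted p = 3.68e-07), and after GLE1 knock-down, to 1.47 ± 0.00914 (3.4e-06). ZCCHC7, a subunit of the TRAMP complex, which adds short tails to exosome substrates, had the largest rise after IPPK knock-down, to 2.05 ± 0.123 of control (limma adjusted p = 5.61e-06).

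TENT4B, the poly(A) polymerase of the same complex, was not well above background on any of the 3 IPPK siRNA arrays. It was kept only through the arrays of the other groups, where it was high, so its p-value is left out. Its call is among those counted as lower with IPPK siRNA above, in limma and in the methods' t-test. In background-subtracted values TENT4B was at least 3.43-fold lower with IPPK siRNA than in control. The size depends on the treatment of background, since the log2 difference was -0.65 with the authors' processed values, where background is left in. Such a bound sets the mean of the brighter group against, on each array of the dimmer group, the higher of the probe's own signal and the lowest signal among probes well above background. ZCCHC8, of the complex that brings short nuclear transcripts to the exosome, was the cofactor lower in all 3 knock-downs besides C1D, at 0.684, 0.723 and 0.645 of control with siRNA against DBP5, GLE1 and IPPK (limma adjusted p at most 0.000273, and 0.055 for DBP5 siRNA in the methods' t-test).

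In the cytoplasm the SKI complex feeds mRNA into the exosome. Of the 4 genes listed for it, 2 were higher and none lower after DBP5 knock-down (26.7% and 27.5% of all genes), 2 were higher and 2 lower after GLE1 knock-down (30.6% and 31.5%), and 1 was higher and none lower after IPPK knock-down (27.3% and 28%). SKIC2, its helicase, rose most after DBP5 knock-down, to 1.29 ± 0.167 (SD, n = 3 arrays) of control (limma adjusted p = 0.0049, and 0.161 in the methods' t-test). SKIC3, the scaffold of the complex, was the other gene called higher there (limma adjusted p = 0.0171), and the call was lost without control replicate 1 (0.0531), control replicate 3 (0.0588), DBP5 replicate 1 (0.0533) or DBP5 replicate 3 (0.0548), with the 6 arrays compared alone (0.0644) and in the methods' t-test (0.22). SKIC8, the WD-repeat subunit, fell most after GLE1 knock-down, to 0.643 ± 0.0175 of control (limma adjusted p = 5.1e-07). HBS1L, whose short form links the SKI complex to the exosome, was highest in ratio after GLE1 knock-down, at 1.57 ± 0.0563 of control (1.55e-06), and after IPPK knock-down, at 2.19 ± 0.0485 (4.56e-08). With GLE1 siRNA 2 of its dimmer probes went the other way, at ratios of 0.573 and 0.686. The same 2 went along with the brightest after IPPK knock-down, with 1.68 and 1.46. Of the 4 probes of HBS1L, 1 has no ratio given here. The mean of its probes after GLE1 knock-down was -0.15 on the log2 scale (limma adjusted p = 0.309).

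Among 6 other enzymes of RNA decay, 5 exonucleases and DCPS, which removes caps from short fragments, 3 were higher and none lower after DBP5 knock-down, and 4 were higher and 1 lower after each of GLE1 and IPPK knock-down. DCPS was called in none. The shares of all genes higher in the 3 comparisons were 26.7%, 30.6% and 27.3%, and those lower 27.5%, 31.5% and 28%. In the methods' t-test XRN2 alone stayed higher after DBP5 knock-down, and XRN1 lost its call there (0.148) and after IPPK knock-down (0.0615). XRN2, the nuclear 5′ to 3′ exonuclease, rose most after DBP5 knock-down, to 2.32 ± 0.266 (SD, n = 3 arrays) of control (limma adjusted p = 4.11e-07), and after IPPK knock-down, to 2.06 ± 0.0809 (1.07e-06). XRN1, its cytoplasmic counterpart, rose most after GLE1 knock-down, to 2.38 ± 0.0712 of control (limma adjusted p = 2.34e-07). Most exosome subunits were lower in that knock-down, and a link between these changes was not tested. PARN, a poly(A)-specific deadenylase, was the one lower, at 0.7 ± 0.0644 of control after GLE1 knock-down (limma adjusted p = 0.00011) and 0.705 ± 0.0528 with IPPK siRNA (0.000167). DIS3L2, a cytoplasmic relative of DIS3 that acts without the exosome, was at 2.19 of control after DBP5 knock-down by its brightest probe, while its dimmer probes gave 0.664, 1.65 and 0.956. That call was lost in the methods' t-test (0.0634). The probes were called in opposite directions in a fit of all probes. After DBP5, GLE1 and IPPK knock-down 1 dimmer probe was lower, at 0.664, 0.577 and 0.529 (limma adjusted p = 0.00255, 0.00028 and 0.000127). Another was higher, at 1.65, 1.34 and 1.55 (0.00183, 0.0302 and 0.00426), and the last was not called. With the mean of the probes of DIS3L2 the calls after GLE1 and IPPK knock-down were lost (limma adjusted p = 0.328 and 0.245).

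**Figure D4:**
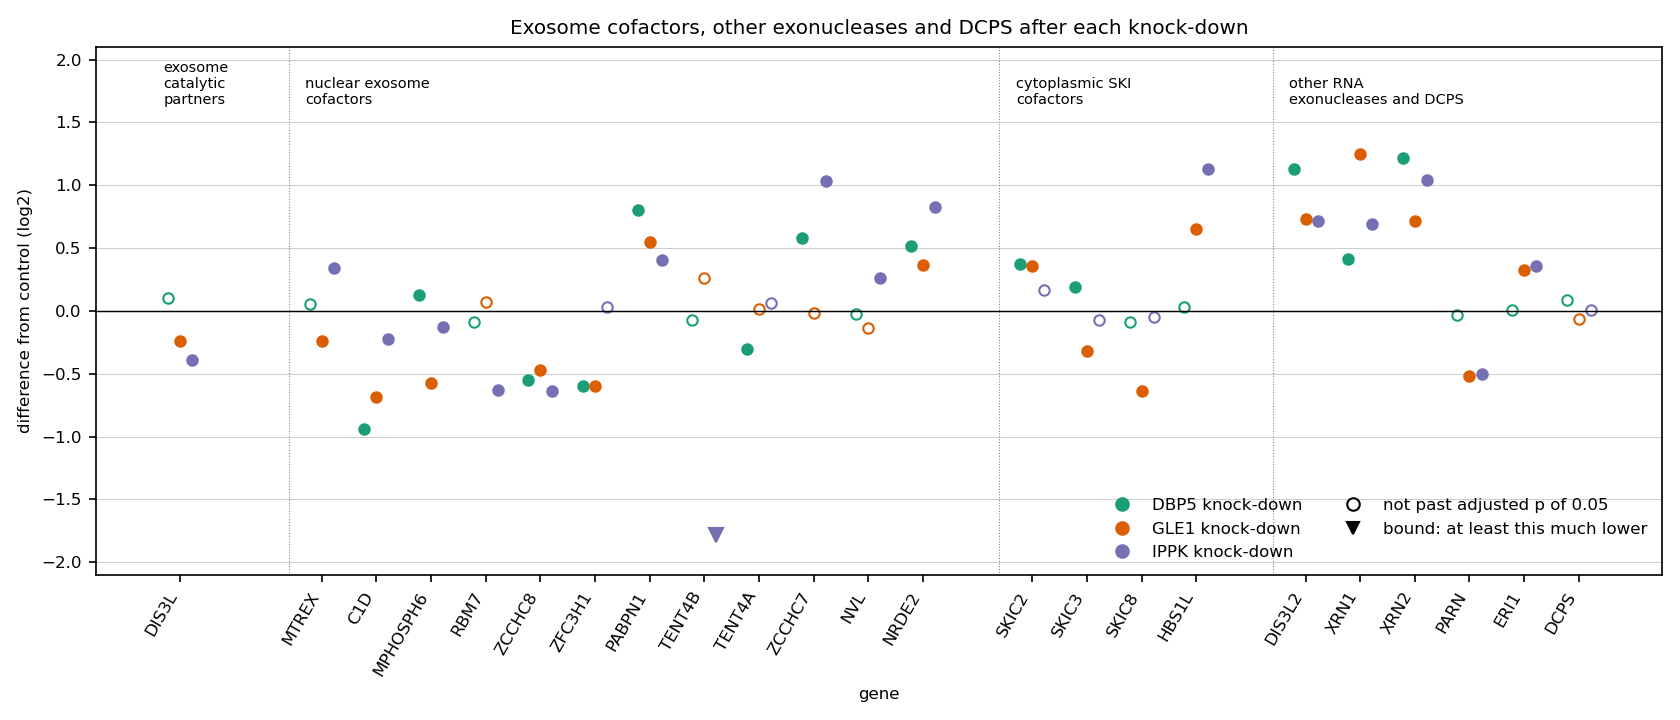
Log2 difference from control (vertical axis) of partners and cofactors of the exosome and of other RNA exonucleases and DCPS (horizontal axis, grouped by list) after DBP5, GLE1 and IPPK knock-down, as differences between means of 3 arrays, filled where the limma adjusted p was under 0.05, with a triangle for a bound. By the brightest probe of each gene, C1D and ZCCHC8 are filled below control, and PABPN1, NRDE2, DIS3L2, XRN1 and XRN2 are filled above it, in all 3 knock-downs. The dimmer probes of DIS3L2 disagree.

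Markers of the cells and of the fraction were measured beside these results. All 6 markers of the mesenchymal and bone lineage had a probe, with VIM the brightest on every array. Of the 6, 2 were called lower and 1 higher after DBP5 knock-down (27.5% and 26.7% of all genes), 1 lower and none higher after GLE1 knock-down (31.5% and 30.6%) and 3 lower and none higher after IPPK knock-down (28% and 27.3%). With IPPK siRNA COL1A1 was at 0.252 of control (limma adjusted p = 1.84e-08) and RUNX2 at 0.615 (0.00035), and COL1A2 was not well above background on any DBP5 or IPPK siRNA array. COL1A2 is among the genes counted as lower with each of these siRNAs, by at least 1.47-fold and 1.1-fold. It was kept only through the control arrays, where it was high, so no conclusion is drawn from its calls. The dimmer probe of RUNX2 did not fall with IPPK siRNA, at 1.05 of control (limma adjusted p = 0.92 in a fit of all probes). Of 8 markers of epithelial, blood, endothelial and liver cells, EPCAM had the brightest probe, and the summed intensity of the 8 was 998, 1100 and 921 on the control arrays, 799, 792 and 689 after DBP5, 821, 976 and 950 after GLE1 and 566, 774 and 731 after IPPK knock-down. Between 4 and 8 of them were well above background on an array. Of the 8, 1 was called lower and 2 higher after each of DBP5 and GLE1 knock-down, and 2 lower and 1 higher after IPPK knock-down. All of the higher calls were of CDH1 or ALB, which were not well above background on any control array. No conclusion is drawn from these counts. Of the lower calls after IPPK knock-down, 1 was of PECAM1. It was well above background on 1 control array and on no IPPK siRNA array, and was kept only through the GLE1 siRNA arrays. The shares of all genes are those given above for the mesenchymal list. In the methods' t-test 1 was lower and none higher after DBP5 knock-down (12.5% and 11.7% of all genes). It gave none lower and 2 higher after GLE1 knock-down (24% and 23.2%), and none after IPPK knock-down (17.7% and 18.9%). CDH1 was not well above background on any control array and was at least 8.42-fold higher after GLE1 knock-down (limma adjusted p = 1.16e-07), at least 1.64-fold higher after DBP5 knock-down (0.00177) and called higher after IPPK knock-down (0.000196), where 2 of the 3 arrays were well above background. EPCAM, also epithelial, went the other way, at 0.657 of control with DBP5 siRNA (limma adjusted p = 0.0436), 0.735 with GLE1 siRNA (0.116) and 0.528 with IPPK siRNA (0.00547). ALB, not well above background on any control array, was at least 2.02-fold higher with DBP5 siRNA. With GLE1 siRNA 2 of the 3 arrays were well above background for ALB. It was kept only through the DBP5 siRNA arrays, where it was high, so its p-values are left out. CDH1 was likewise kept only through the DBP5 and GLE1 siRNA arrays, where it was high, so no conclusion is drawn from its p-values. Of the 3 RNAs retained in the nucleus with a named probe, KCNQ1OT1 had the brightest, with ratios to control of 1.56 for DBP5 siRNA (limma adjusted p = 2.2e-05), 1.8 for GLE1 siRNA (1.78e-06) and 1.16 for IPPK siRNA (0.0212). MEG3 was at 1.24 after GLE1 knock-down (limma adjusted p = 0.0109), with its dimmer probe at 0.812 (0.591). MALAT1 went the other way, at 0.692 with DBP5 siRNA (0.0958), 0.798 with GLE1 siRNA (0.285) and 0.474 with IPPK siRNA (0.0035). In the methods' t-test none of these 3 RNAs was called after IPPK knock-down (17.7% of all genes lower and 18.9% higher). The share of probes well above background was 74.8% to 77.4% on the control arrays and 70.9% to 73.8% on the IPPK siRNA arrays, without overlap. The part of these markers and shares in the levels of the exosome subunits was not tested.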

How the data were processed

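The authors deposited, for each of the 12 arrays, the scanner software's intensity of every spot after subtraction of the local background, with flags, and a table of processed log2 values, which matched the median intensity of the spots with background left in (Pearson's r of 0.9998 or more). The intensities were made into log2 values, control and outlier spots were left out, spots of a probe were averaged and the arrays were normalised by cyclic loess. The order of averaging and loess was chosen after both had been run, because it gave the counts over all genes known from earlier processing of these data. The other order is an alternative. Probes were named through accessions in RefSeq (26449 of 34127, the others by the array's own name), and the brightest probe stood for a gene. A gene was kept where all 3 arrays of some siRNA had its probe well above background. limma 3.58.1 in R 4.3.3 fitted one mean per siRNA over the 12 arrays (two-sided tests, p adjusted by Benjamini-Hochberg across 20821 genes), after a test on simulated data. Tables and figures used the R package data.table (1.17.8), Python 3.11.15, pandas 2.3.3 and matplotlib 3.10.9.

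The members and lists were chosen with earlier results of these data known. Named were the 10 subunits, the siRNA targets, the largest rise and fall of each list in each knock-down and, for the 2 subunits with the widest range, the 3 genes most like each. Some members of the lists were named beside these. Same-numbered arrays of different siRNAs deviated together from their group means (18 pairs, r from 0.318 to 0.513; other pairs -0.285 to -0.0495). Arrays were therefore paired by that number, which marks the slide, in the methods' t-test, and an alternative limma fit took the slide as a block. The main limma fit did not use this pairing.

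Alternatives were normexp (offset 50), scaling to the 75th percentile, quantile normalisation, the authors' processed values, dim probes left in or taken out by all 12 arrays, averaging the probes of a gene, the replicate block, the 6 arrays compared alone, each array left out in turn and the methods' t-test, two-sided and paired by replicate number. The methods name that test, beside a one-way ANOVA with Dunnett's test, for statistics in general, with the choice given in the figure legends. They do not name it for the arrays, whose gene lists came from a rank product. Loess on single spots before averaging was added after seeing the data. Plots start from the same values as the text.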

Additional observations from a re-analysis of the deposited data

How the results depend on the processing

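No difference of an exosome subunit changed direction past a call in any alternative. Of 660 values of the subunits under other settings, 613 stayed on the same side of the limit, 30 lost a call and 17 gained one. Of 720 values with 1 array left out, 704 stayed, 8 lost a call and 8 gained one. All values of the siRNA targets stayed, and so did the 12 of the EXOSC2 probes taken singly, which had normexp as their one alternative. The replicate block changed no call of a subunit except that of EXOSC7 after IPPK knock-down (0.0303).

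Counts of subunits moved by over 1.5 times in 10 of 132 cases. The methods' t-test after adjustment gave 1 lower and 1 higher after DBP5 knock-down (12.5% and 11.7% of all genes), 7 and 1 with GLE1 siRNA (24% and 23.2%), 2 and 1 with IPPK siRNA (17.7% and 18.9%), 2 and 1 between GLE1 and DBP5 (13.4% and 12.1%), 6 and 1 between GLE1 and IPPK (25.4% and 23.6%) and 3 and 1 between DBP5 and IPPK knock-down (9.95% and 9.01%). Calls of all genes thus fell as well. Without adjustment it gave 4 lower and 2 higher after DBP5 (24% and 22.2%), 8 and 1 after GLE1 (29.5% and 29.1%) and 4 and 2 after IPPK knock-down (25.8% and 26.1%). With normexp no subunit was higher between GLE1 and IPPK (0) or between DBP5 and IPPK knock-down (0), and with the authors' processed values the latter was 0 as well. With 1 array left out, 3 to 4 were lower and 2 to 3 higher after DBP5 knock-down, 8 lower and 1 higher after GLE1 knock-down, and 4 lower and 3 to 4 higher after IPPK knock-down. The range was 6 lower and 2 higher between GLE1 and DBP5, 5 to 8 lower and 1 higher between GLE1 and IPPK and 5 lower and 1 higher between DBP5 and IPPK knock-down. The cause was not tested.

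Of 1512 values of cofactors, exonucleases and DCPS, 61 lost a call and 15 gained one, and of 1656 with 1 array left out, 31 lost one and 11 gained one. Of the former, 3 reversed, all with the mean of a gene's probes: HBS1L between GLE1 knock-down and control (-0.15, limma adjusted p = 0.309) and between GLE1 and DBP5 knock-down (-0.17, 0.287), and ZFC3H1 between GLE1 and DBP5 knock-down (-0.29, 0.0353). Their probes disagree. Signal over background limits DIS3 and TENT4B, and 3 arrays per group limit every value.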
